A study of Mus musculus with 19 samples.

Results

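The genes described here encode 7 ion channels of microglia: the potassium channels Kcnk13, Kcnk6, Kcnj2, Kcna3 and Kcnn4 and the transient receptor potential (TRP) cation channels Trpv2 and Trpm2. They were chosen by symbol, and all 7 were found among the 23951 genes listed. RNA was sequenced from microglia sorted from mouse hippocampus for CD11b and CD45, in 15 libraries that fall into 5 groups of 3. Every mouse carried Cx3cr1CreER+/-, a tamoxifen-inducible Cre in place of a Cx3cr1 allele, and every group received tamoxifen at 50 mg/kg for 5 days. In the 3-month set, PU.1 fl/fl; Cx3cr1CreER+/- mice (PU.1 conditional knockout, cKO) were set against Cx3cr1CreER+/- controls, and tissue was taken 1 week after tamoxifen. In the 4.5-month set, tamoxifen coincided with the induction of p25, and tissue was taken 6 weeks later from Cx3cr1CreER+/-; CK control littermates (CK), from Cx3cr1CreER+/-; CK-p25 mice (CK-p25) and from such CK-p25 mice that also carried PU.1 fl/fl (CK-p25 PU.1cKO). CK-p25 mice are an inducible model of neurodegeneration in which forebrain neurons express p25, an activator of the kinase Cdk5. PU.1, encoded by Spi1, is a transcription factor of myeloid cells. The Cre driver is active in cells that express Cx3cr1, which include border macrophages as well as microglia.

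Potassium channels let potassium leave the cell and so hold its membrane potential negative, which in microglia bears on process movement, calcium entry and cytokine release. Kcnk13 (THIK-1) and Kcnk6 (TWIK-2) belong to the tandem-pore family of leak channels; potassium efflux through them has been tied to surveillance and to activation of the Nlrp3 inflammasome. Kcnj2 encodes an inward rectifier, Kcna3 a voltage-gated channel that blockers have made a much studied target on activated microglia and T cells, and Kcnn4 a channel opened by calcium through calmodulin. Trpv2 is a calcium-permeable cation channel of phagocytes, and Trpm2 is opened by ADP-ribose, which forms under oxidative stress.

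The targeted gene was checked first. Levels are in FPKM, sequenced fragments scaled to the length of the transcript and to the library's count of mapped fragments. At 3 months Spi1 stood at 261, 105 and 248 FPKM in the libraries whose titles say control. In those whose titles say PU.1cKO it stood at 409, 338 and 337 FPKM. It was thus lower in the labelled controls, and the groups did not overlap. The difference, labelled PU.1cKO minus labelled control, was 0.92 ± 0.35 (SE) on the log2(FPKM + 1) scale, with an adjusted p of 0.0853 in limma. The sample titles and the source names of these 6 libraries also point opposite ways. They are therefore called "labelled control" and "labelled PU.1cKO" throughout, and with the other reading of the labels every 3-month difference below changes its sign. At 4.5 months Spi1 was at 256, 230 and 251 FPKM in CK, at 251, 208 and 298 in CK-p25 and at 165, 152 and 224 in CK-p25 PU.1cKO. The last library overlaps the CK-p25 range, and the difference from CK-p25, -0.49 ± 0.17, had an adjusted p of 0.745. A gene-level value does not separate the deleted exons from the rest of the gene. Summed FPKM per library ran from 449784 to 650063. Read totals are not known. From the spacing of the lowest values, the worth of 1 read spanned 0.76 to 1.01 of the first library of the 3-month table and 0.892 to 1.3 of that of the 4.5-month table. The highest of these belongs to CK-p25 replicate 3, the shallowest of its table, which was also the only library of the 4.5-month set from a later sequencing run (8 libraries in the first run, 1 in the second). Nothing in the labels ties each library to an animal of its own, and p-values therefore describe spread between libraries that may be partly technical.

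RefSeq start windows of the channel genes are shown because PU.1 is known to bind purine-rich sites around the letters GAGGAA, and PU.1 is the factor deleted in the cKO mice. Windows of 300 bases (250 before and 50 after an annotated start) on build GRCm38.p6 were matched for 6 of the 7 genes, in 8 windows. Kcnk6 had no entry. GAGGAA or its reverse complement TTCCTC occurred in the windows of 4 genes. Over all 32851 windows of this length in the table, 28.3% hold it. The longer form GAGGAAGT, which contains the shorter, was found in Trpv2 and in 3.2% of all windows. In the 4 sequences below, each read 5′ to 3′ on the strand of its gene, capitals mark GAGGAA or TTCCTC. The windows lie at chr11:111065914-111066213 (Kcnj2), chr3:107035912-107036211 (Kcna3), chr12:99964249-99964548 (Kcnk13) and chr11:62574236-62574535 (Trpv2), all on the plus strand.
Kcnj2: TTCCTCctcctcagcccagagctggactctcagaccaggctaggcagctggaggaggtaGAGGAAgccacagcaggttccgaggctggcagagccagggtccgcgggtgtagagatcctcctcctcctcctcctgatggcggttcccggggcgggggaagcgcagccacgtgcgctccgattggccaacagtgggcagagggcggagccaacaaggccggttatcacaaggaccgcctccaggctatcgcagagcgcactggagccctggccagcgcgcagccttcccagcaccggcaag
Kcna3: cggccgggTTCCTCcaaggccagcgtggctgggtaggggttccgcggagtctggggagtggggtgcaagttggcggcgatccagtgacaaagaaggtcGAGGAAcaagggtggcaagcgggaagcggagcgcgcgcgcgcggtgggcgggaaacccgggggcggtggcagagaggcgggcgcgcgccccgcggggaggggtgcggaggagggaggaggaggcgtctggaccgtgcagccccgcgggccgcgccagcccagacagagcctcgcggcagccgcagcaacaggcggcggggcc
Kcnk13: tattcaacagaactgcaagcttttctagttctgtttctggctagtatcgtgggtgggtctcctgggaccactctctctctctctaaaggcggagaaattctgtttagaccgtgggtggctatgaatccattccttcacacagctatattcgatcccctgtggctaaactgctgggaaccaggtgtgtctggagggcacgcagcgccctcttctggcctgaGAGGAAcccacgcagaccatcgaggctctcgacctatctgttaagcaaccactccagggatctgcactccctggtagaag
Trpv2: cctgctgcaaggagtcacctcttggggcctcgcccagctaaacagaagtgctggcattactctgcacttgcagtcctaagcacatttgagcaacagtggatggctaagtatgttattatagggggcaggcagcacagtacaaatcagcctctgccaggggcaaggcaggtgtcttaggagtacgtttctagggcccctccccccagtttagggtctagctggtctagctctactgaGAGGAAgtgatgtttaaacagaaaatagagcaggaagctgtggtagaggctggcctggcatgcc
In Kcnj2 and Kcna3 the letters occur once on each strand, within GC-rich windows (66.7% and 75% G or C). Trpv2 has 3 annotated starts, of which the first is shown; the second window overlaps it and holds the same letters 41 bases before its own start, and the third holds none. In Kcnk13 and in the Trpv2 window shown they occur once, 30 and 14 bases before the start, in windows of 52.7% and 53% G or C. The windows of Kcnn4 and Trpm2 do not hold these letters. A match is a description of the letters and not a measured binding site.

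In CK microglia the leak channels and Trpv2 were the most abundant of these transcripts. Kcnk6 had the highest level, 100.5 ± 2.62 FPKM (mean ± SD, n = 3), followed by Kcnk13 at 57.4 ± 7.16, Trpv2 at 42.4 ± 0.491 and Kcnj2 at 12.5 ± 2.29, with no overlap between neighbours in this order. Trpm2 (7.01 ± 0.728), Kcna3 (4.56 ± 2.71) and Kcnn4 (2.72 ± 0.299) followed, and each overlapped the next. In CK-p25 the top 4 genes, Kcnk6, Kcnj2, Kcnk13 and Trpv2, each overlapped the next, and all lay above Trpm2, Kcna3 and Kcnn4. Every neighbour in the order overlapped in CK-p25 PU.1cKO. Kcnj2 thus stood apart from Kcnk13 and Trpv2 in CK and among them in both CK-p25 groups. The 5 potassium channels made up most of the summed FPKM of the 91 potassium channel genes and their subunits in the table: 69.5 ± 1.02% in CK, 78.6 ± 4.54% in CK-p25 and 82.5 ± 6.65% in CK-p25 PU.1cKO. That sum was 242 to 276 FPKM in CK, 198 to 269 in CK-p25 and 238 to 254 in CK-p25 PU.1cKO, so the ranges overlapped while the makeup differed. Trpv2 and Trpm2 together held 51.3 ± 1.48% of the summed FPKM of 28 TRP genes in CK, 45.1 ± 1.02% in CK-p25 and 43.7 ± 3.89% in CK-p25 PU.1cKO. The TRP sum was 92.7 to 99.0 FPKM in CK and 124 to 136 in the CK-p25 groups together, with no overlap. Summed FPKM over all genes did not overlap either, at 475007 to 500482 in CK and 545930 to 650063 in the CK-p25 groups together. The part of these totals in the TRP sum was not tested.

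**Figure D1:**
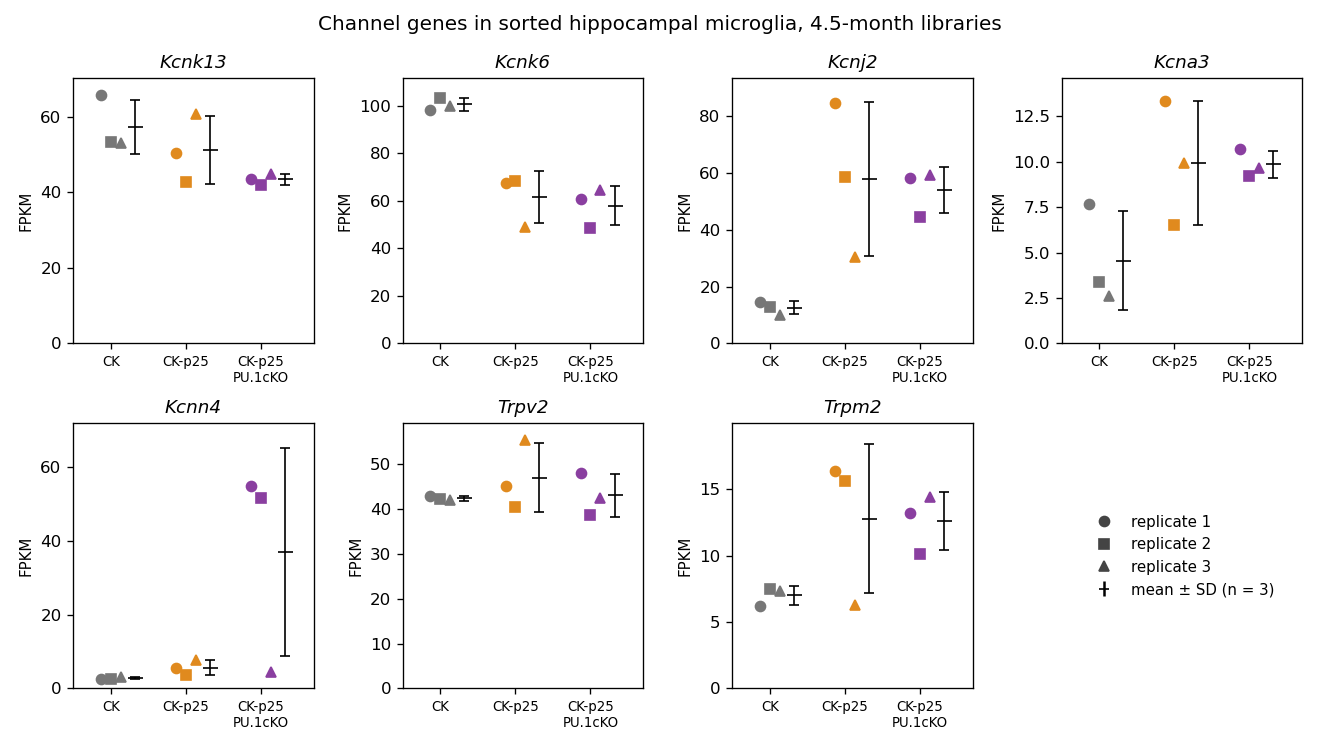
FPKM of the 7 channel genes in each of the 9 libraries of the 4.5-month set (points, shaped by replicate) with the mean and SD of each group of 3 (bars). Kcnj2 lies between 10.1 and 14.6 FPKM in CK and at 30.3 or above in every CK-p25 and CK-p25 PU.1cKO library, while Kcnk6 lies at 98.3 or above in CK and at 68.3 or below in the others.

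**Figure D2:**
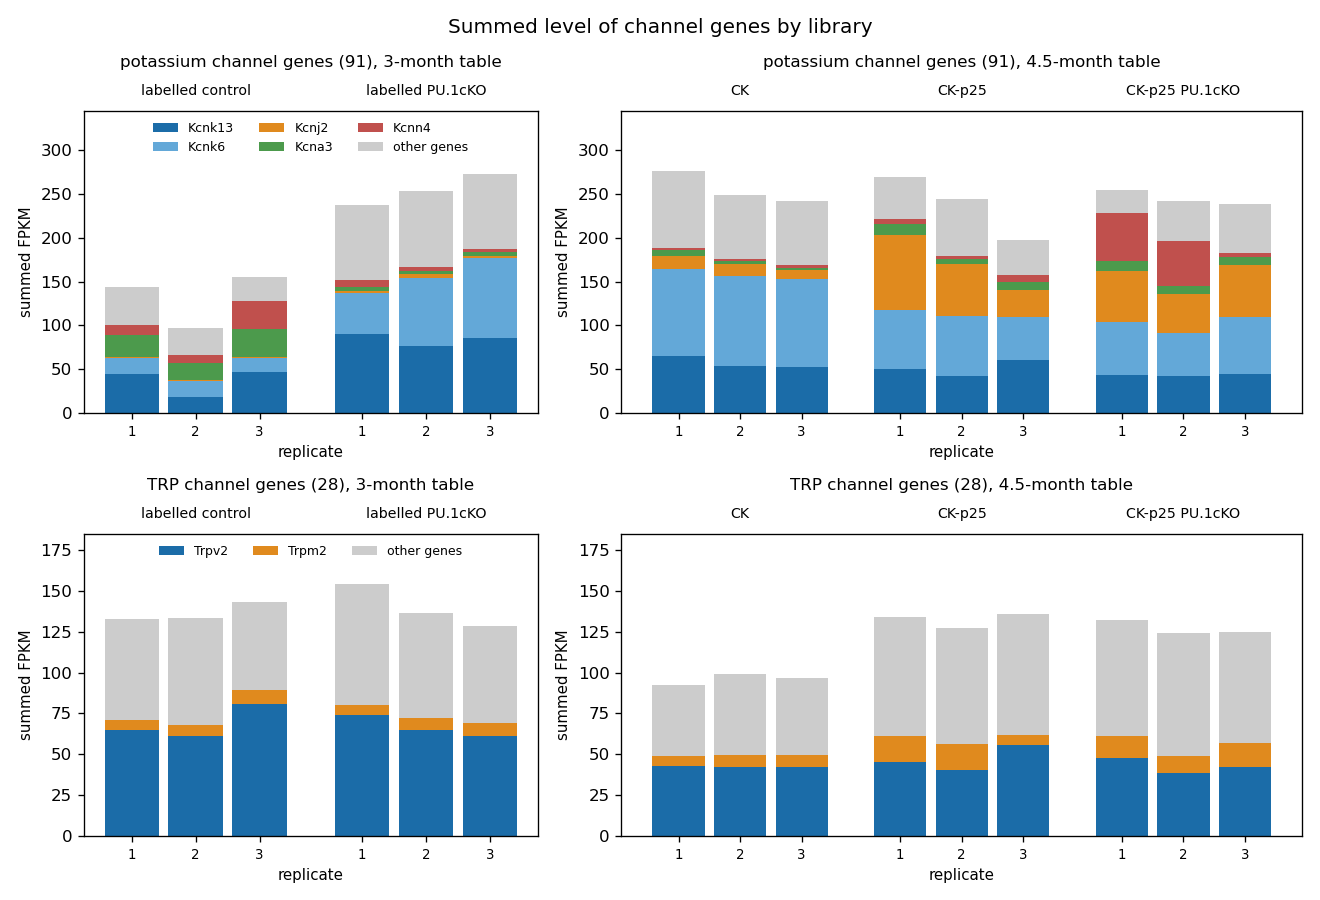
Summed FPKM of 91 potassium channel genes (upper panels) and 28 TRP channel genes (lower panels) in each library of the 3-month and 4.5-month tables, stacked by gene, with the remaining genes in grey. The Kcnj2 segment is wide in the CK-p25 groups, and the Kcnn4 segment is wide in CK-p25 PU.1cKO replicates 1 and 2.

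The CK-p25 comparison asks what changed in microglia of the degenerating hippocampus with PU.1 intact. Of the 7 channels, 2 rose in CK-p25 against CK (Kcnj2 and Kcna3) and 1 fell (Kcnk6). Over all 10894 genes tested, 17.6% were called higher and 13.7% lower, so 3 of 7 is near the background of 31.3%. Group values did not overlap for 3 of the 7, against 46.5% of all genes. The median difference of the 7 was 0.68 on the log2(FPKM + 1) scale, against -0.0003 over all genes. It is the value of Trpm2, which did not pass. When CK-p25 PU.1cKO was set against the same CK libraries, 3 channels rose (Kcnj2, Kcna3 and Kcnn4) and 1 fell (Kcnk6), against 17.8% and 13.3% of all genes (31.1% in either direction). Here 6 of 7 did not overlap, against 58.5% of all genes. The median was 0.75, against -0.001 over all genes, and is again the value of Trpm2, which did not pass. These comparisons share their CK libraries and are not independent of each other. In bulk RNA, fewer cells of a type and less RNA per cell cannot be told apart.

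Among the leak channels, Kcnk6 fell. Its level was 98.3, 103.4 and 99.9 FPKM in the CK libraries, 67.5, 68.3 and 49.1 in CK-p25, and the CK-p25 PU.1cKO libraries held 60.7, 48.7 and 64.4. All 6 libraries with p25 lay below all 3 CK libraries. The mean in CK-p25 was 0.613 times that of CK, a difference of -0.71 ± 0.15 (log2, SE; adjusted p = 0.00811, limma). For CK-p25 PU.1cKO against CK it was -0.79 ± 0.15 (adjusted p = 0.00479). Both calls held under all 17 alternative settings tried. Kcnk13 was at 65.6, 53.4 and 53.1 FPKM in CK, at 50.4, 42.7 and 60.7 in CK-p25 and at 43.4, 42.0 and 44.9 in CK-p25 PU.1cKO. CK-p25 overlapped CK, and the difference of -0.17 ± 0.14 (95% interval -0.48 to 0.15) did not pass (adjusted p = 0.388). CK-p25 PU.1cKO lay wholly below CK, by -0.39 ± 0.14, and did not pass either (adjusted p = 0.0642). That difference passed after median centring (0.0426), under quantile normalization (0.0124), with the fit limited to the 6 libraries compared (0.018) and without CK-p25 replicate 2 (0.0357) or 3 (0.0184).

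Kcnk12 (THIK-2), the nearest relative of Kcnk13, gave the largest fall among the other potassium channel genes. It stood at 20.0, 18.5 and 19.9 FPKM in CK, at 2.33, 1.46 and 2.57 in CK-p25 and at 0.798, 0.660 and 2.47 in CK-p25 PU.1cKO. No library with p25 came near the CK range. The differences from CK were -2.73 ± 0.28 (adjusted p = 0.000247) and -3.23 ± 0.28 (adjusted p = 0.000104).

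Kcnj2, the inward rectifier, showed the largest rise of the 7 in CK-p25. Its 3 CK libraries held 14.6, 12.7 and 10.1 FPKM, the CK-p25 libraries 84.7, 58.5 and 30.3, and the CK-p25 PU.1cKO libraries 58.2, 44.6 and 59.2. Every library with p25 lay above every CK library, and CK-p25 replicate 3, the library of the later run, was the lowest of them. The mean was 4.63 times that of CK in CK-p25 (2.02 ± 0.33 log2, adjusted p = 0.00254) and 4.33 times in CK-p25 PU.1cKO (2.03 ± 0.33, adjusted p = 0.00245). Within the first run, without CK-p25 replicate 3, the CK-p25 difference was 2.42 (adjusted p = 0.000214). Both calls held under all 17 alternatives.

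Kcna3, the voltage-gated channel, rose from a low level. CK libraries held 7.66, 3.41 and 2.62 FPKM, CK-p25 libraries 13.3, 6.51 and 9.92, and CK-p25 PU.1cKO libraries 10.7, 9.24 and 9.64. CK replicate 1 lay above CK-p25 replicate 2, and the CK-p25 PU.1cKO libraries lay above all of CK. Both libraries of this overlap differed from their groups in the sums of some marker lists. In CK replicate 1 those of border macrophages summed to 7.61 FPKM against 284 and 334 in CK replicates 2 and 3, and those of neutrophils to 0.145 against 120 and 75.3. In CK-p25 replicate 2 neutrophil markers summed to 826 FPKM against 0.0216 and 1.77 in CK-p25 replicates 1 and 3. Its oligodendrocyte markers came to 537 against 171 and 114, and its astrocyte markers to 298 against 84.4 and 105. Its border macrophage markers lay closer to the others, at 184 against 140 and 128. The part of other cells in the Kcna3 values was not tested. Without CK replicate 1 the CK-p25 difference was 1.40 (adjusted p = 0.00858). Mean levels were 2.17 and 2.16 times that of CK, with differences of 1.03 ± 0.33 (adjusted p = 0.0477) and 1.07 ± 0.33 (adjusted p = 0.0418). The CK-p25 call lay close to the threshold: it passed in 7 of 17 alternatives. It held without CK replicate 1 or CK-p25 replicate 2 and was lost without each of the other 7 libraries in turn (adjusted p 0.0696 to 0.15), among them CK-p25 replicate 3, whose removal leaves the first run alone (0.0813). The CK-p25 PU.1cKO call was lost without CK replicate 2 or 3 (0.128 and 0.134) and without any CK-p25 PU.1cKO library (0.0905 to 0.114).

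Kcnn4, the calcium-activated channel, was uneven between libraries of the same group. It was at 2.50, 2.59 and 3.06 FPKM in CK and at 5.60, 3.51 and 7.63 in CK-p25, and CK-p25 PU.1cKO libraries held 54.9, 51.6 and 4.50. Replicates 1 and 2 of CK-p25 PU.1cKO stood far above every other library of the set, and replicate 3 lay within the CK-p25 range. Against CK the difference was 2.77 ± 0.79 (adjusted p = 0.0299). The call was lost without CK-p25 PU.1cKO replicate 1 (2.20, adjusted p = 0.1) or 2 (2.24, 0.102) and without any of CK replicates 1 to 3 (0.0728 to 0.0812). Without CK-p25 PU.1cKO replicate 3 it was 3.87 (adjusted p = 9.77e-05). CK-p25 lay above CK in all libraries but did not pass, at 0.78 ± 0.79 (adjusted p = 0.492), and passed without CK-p25 PU.1cKO replicate 3 (0.0367). The neighbouring gene Smg9 was at 12.8, 12.05 and 12.1 FPKM in the CK-p25 PU.1cKO libraries and so did not follow Kcnn4. Replicate 3 also stood apart from replicates 1 and 2 in other genes: Cx3cr1 was at 666, 576 and 1187 FPKM in these libraries, Cd79b at 3.12, 3.89 and 21.8, and Spi1, given above, was highest in replicate 3. Some single markers of other cells split them as Kcnn4 did, Cspg4 of the oligodendrocyte list at 34.2, 31.3 and 2.33 FPKM, Fn1 of the monocyte list at 28.01, 21.6 and 5.71 and Ms4a7 of the border macrophage list at 85.9, 115 and 35.1. The sums of these lists and of the T and NK cell list did not: oligodendrocyte markers came to 167, 351 and 378 FPKM, monocyte markers to 35.2, 56.2 and 55.6, border macrophage markers to 172, 501 and 246, and T and NK cell markers to 4.47, 45.3 and 32.9. The part of other cells and of the library in the Kcnn4 values was not tested.

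Neither TRP gene passed in the comparisons with CK. Trpv2 stood at 42.9, 42.1 and 42.0 FPKM in CK, at 45.1, 40.4 and 55.4 in CK-p25 and at 47.9, 38.6 and 42.5 in CK-p25 PU.1cKO, and all groups overlapped. Its differences from CK were 0.13 ± 0.13 (95% interval -0.15 to 0.42, adjusted p = 0.455) and 0.02 ± 0.13 (-0.27 to 0.30, adjusted p = 0.941), the narrowest intervals of the 7 genes. Trpm2, the ADP-ribose-gated channel, was at 6.18, 7.52 and 7.35 FPKM in CK, at 16.4, 15.6 and 6.30 in CK-p25 and at 13.2, 10.1 and 14.4 in CK-p25 PU.1cKO. CK-p25 replicate 3 lay within the CK range and the other 5 libraries with p25 lay above it. As measured, neither difference passed: 0.68 ± 0.31 for CK-p25 (adjusted p = 0.133) and 0.75 ± 0.31 for CK-p25 PU.1cKO (adjusted p = 0.104). Without CK-p25 replicate 3, and so within the first run, they were 1.09 (adjusted p = 0.00119) and 0.75 (adjusted p = 0.00302). The CK-p25 PU.1cKO difference also passed with the fit limited to the 6 libraries compared, so without the CK-p25 group (0.0064). The later run and the shallower depth of this library cannot be told apart.

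**Figure D3:**
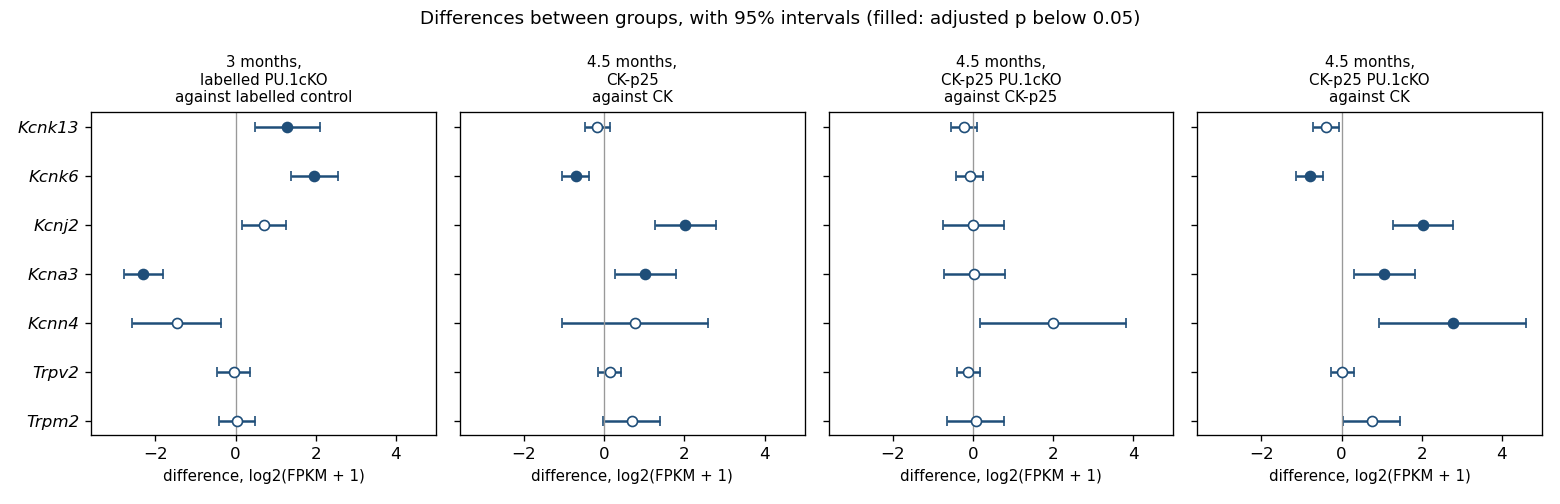
Differences of the 7 channel genes in each of the 4 comparisons, on the log2(FPKM + 1) scale, with 95% intervals (bars); filled points passed an adjusted p of 0.05. Kcnk6 and Kcnj2 lie clear of 0 in both comparisons with CK, and no gene passed between CK-p25 PU.1cKO and CK-p25.

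The comparison of CK-p25 PU.1cKO with CK-p25 asks what loss of PU.1 changed in the presence of p25. None of the 7 channels passed in limma, as none of the 10894 genes tested did (0% called); at an unadjusted p under 0.05 there was 1 of the 7, Kcnn4, and 671 genes in all (6.16%). No channel had groups that did not overlap, against 9.38% of all genes. Kcnn4 had the largest difference, 1.99 ± 0.79 (95% interval 0.17 to 3.81, adjusted p = 0.745, limma). Without CK-p25 PU.1cKO replicate 3 it was 3.09 (adjusted p = 0.00705). For Kcnk6 the difference was -0.08 ± 0.15 (-0.42 to 0.26), for Kcnj2 0.01 ± 0.33 (-0.75 to 0.77) and for Kcna3 0.04 ± 0.33 (-0.73 to 0.81). For Kcnk13 it was -0.22 ± 0.14 (-0.53 to 0.10), for Trpv2 -0.12 ± 0.13 (-0.41 to 0.17) and for Trpm2 0.07 ± 0.31 (-0.65 to 0.78). On this scale the intervals of these 6 genes leave out a doubling in either direction. A p above the threshold does not show that the groups were alike.

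The 3-month set asks what loss of PU.1 changed without p25, under the reservation on its labels given above. In the labelled PU.1cKO libraries, 2 of the 7 channels were called higher (Kcnk13 and Kcnk6) and 1 lower (Kcna3). Over 10845 genes tested, 12.4% were called higher and 17.8% lower (30.1% in either direction). Groups did not overlap for 5 of 7, against 48.8% of all genes. Kcna3 was at 25.7, 19.4 and 31.8 FPKM in the labelled controls and at 4.23, 4.32 and 4.34 in the labelled PU.1cKO. It was 5.97 times higher in the labelled controls, which are the libraries with less Spi1, and the groups stood far apart (-2.30 ± 0.21, adjusted p = 0.000553). Kcnk6 went the other way, at 17.4, 17.7 and 16.0 FPKM in the labelled controls against 47.2, 77.5 and 90.6 (1.97 ± 0.25, adjusted p = 0.00204, a ratio of means of 4.22). Both calls held under all 13 alternatives. Kcnk13 was at 45.0, 18.4 and 46.3 FPKM in the labelled controls against 89.7, 76.8 and 85.8 (1.29 ± 0.35, adjusted p = 0.0291), and its call was lost without any labelled PU.1cKO library (0.0785 to 0.0887).

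The remaining channels did not pass at 3 months. Kcnj2 was low throughout, at 1.40, 1.47 and 1.39 FPKM in the labelled controls and 2.56, 3.86 and 2.53 in the labelled PU.1cKO, apart but not called (0.70 ± 0.23, adjusted p = 0.0569). It passed after median centring (0.038), after quantile normalization (0.0353) and without a variance trend (0.0336). Kcnn4 was at 11.02, 9.61 and 32.1 FPKM in the labelled controls and at 7.97, 4.24 and 3.28 in the labelled PU.1cKO (-1.46 ± 0.47, adjusted p = 0.0529), and passed without labelled control replicate 2 (0.0259). Trpv2 stood at 64.9, 61.5 and 81.0 FPKM in the labelled controls and at 74.0, 64.7 and 61.4 in the labelled PU.1cKO, and Trpm2 at 5.98, 6.31 and 8.18 against 6.09, 7.44 and 7.59. Both overlapped, with differences of -0.04 ± 0.18 (95% interval -0.46 to 0.37, adjusted p = 0.866) and 0.04 ± 0.19 (-0.41 to 0.50, adjusted p = 0.874). The 5 potassium channels summed with the other potassium channel genes to 97.1 to 155 FPKM in the labelled controls and to 237 to 273 in the labelled PU.1cKO, and the members' share was 73.7 ± 7.58% and 66.0 ± 2.19%. In the order of levels, Kcna3 overlapped Kcnk13 and Kcnn4 in the labelled controls, and in the labelled PU.1cKO it stood sixth of 7, above Kcnj2 alone.

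**Figure D4:**
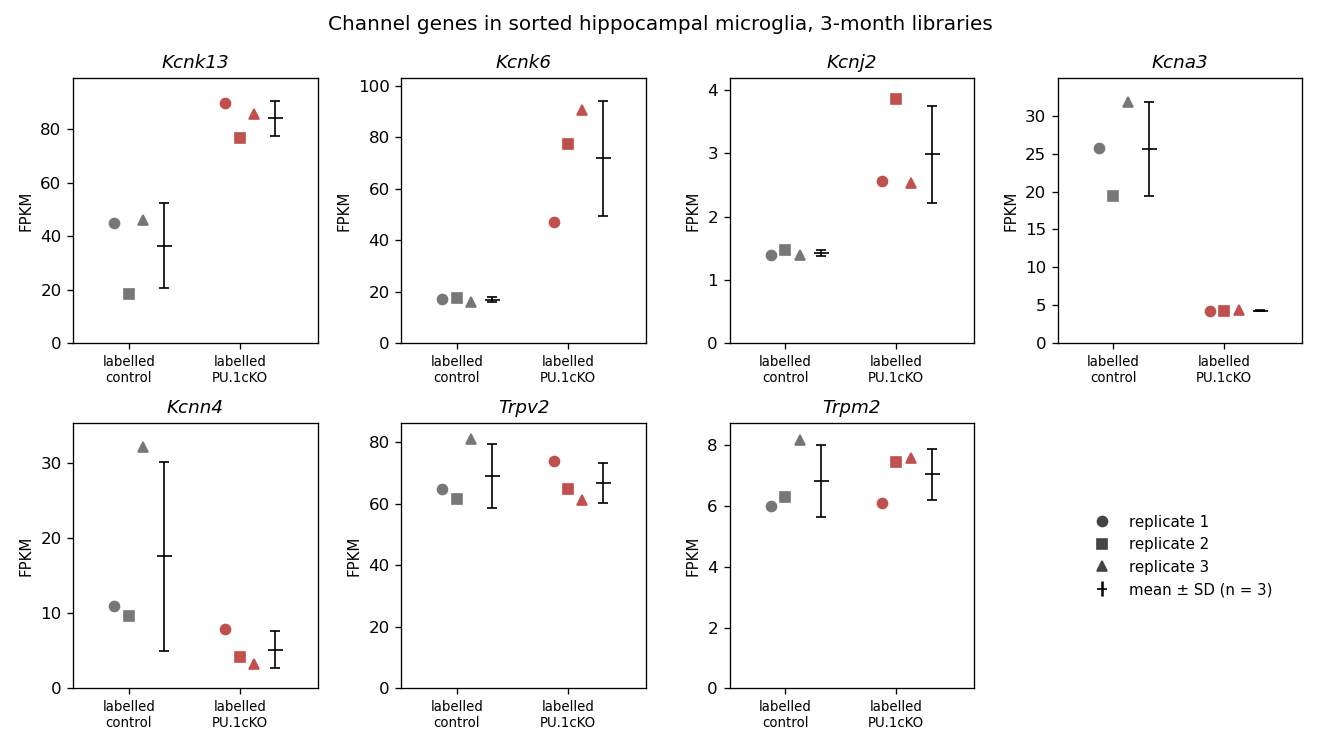
FPKM of the 7 channel genes in each of the 6 libraries of the 3-month set (points, shaped by replicate) with the mean and SD of each group of 3 (bars); groups are named as the sample titles label them. Kcna3 lies at 19.4 or above in the labelled controls and between 4.23 and 4.34 in the labelled PU.1cKO. Kcnk6 lies at 17.7 or below in the labelled controls and at 47.2 or above in the labelled PU.1cKO.

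Markers of the sorted cells moved with these groups. The 10 microglial markers summed to 8358 to 15039 FPKM in the labelled controls against 28474 to 32880 in the labelled PU.1cKO. There 8 of 10 were called higher, against 12.4% of all genes, and 7 after quantile normalization. At 4.5 months the sum was 25895 to 28281 in CK, 17080 to 18913 in CK-p25 and 15638 to 17622 in CK-p25 PU.1cKO, but its genes went both ways. Against CK, 2 of 10, Ptprc among them, were called higher and 4 lower in CK-p25, and 1 higher and 6 lower in CK-p25 PU.1cKO. Over all genes 31.3% and 31.1% were called in these comparisons. After quantile normalization the marker counts were 1 higher and 8 lower in both. Neutrophil markers reached 14970 FPKM in labelled control replicate 1 against 90.9 to 118 in the other labelled controls. Without that library the Kcna3 difference at 3 months was -2.29 (adjusted p = 0.00371) and the Kcnk6 difference 1.98 (adjusted p = 0.00904). Border macrophage markers summed to 525 to 1629 FPKM in the labelled controls against 311 to 375, with 4 of 7 called lower in the labelled PU.1cKO. Over all genes 17.8% were called lower there, and after quantile normalization 1 of these 7 markers was. T and NK cell markers, 9 of 10 in the table, summed to 2.54 to 9.997 FPKM in the labelled controls. In the labelled PU.1cKO they summed to 3.00 to 4.99. Cd3e, Cd2 and Gzma were listed at 0 in all 6 libraries, and Cd3d was at 0.0923 to 0.792. Cd4 was higher, at 2.27 to 9.32 FPKM in the labelled controls and 2.01 to 3.66 in the labelled PU.1cKO. At 4.5 months the sums of CK-p25 PU.1cKO replicates 2 and 3, 45.3 and 32.9 FPKM, lay above every CK library. Replicate 1, at 4.47, lay within the CK range. The Cd3e mean was 0.274 FPKM in CK and 2.95 in CK-p25 PU.1cKO. None of the 4 markers tested passed in that comparison. In the 4.5-month set, astrocyte markers summed to 47.2 to 65.3 FPKM in CK and to 84.4 to 298 in the groups with p25. Of the 6, 1 was called higher in CK-p25 and 2 in CK-p25 PU.1cKO, against 17.6% and 17.8% of all genes. Much of the sum was Gfap, called in both, at 1.36 to 4.13 FPKM in CK and 22.4 to 203 in the groups with p25. Gja1 and Aqp4 overlapped between CK and each group with p25. The part of these cells in the channel values was not tested. Without labelled control replicate 1, the microglial and border macrophage sums of the labelled controls still lay apart from those of the labelled PU.1cKO.

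Other channel genes were counted from lists. Over all genes, 31.3% were called in CK-p25 against CK, 31.1% in CK-p25 PU.1cKO against CK and 30.1% at 3 months. Whether the lists differ from these shares was not tested. Of 88 other potassium channel genes and subunits (the sums above leave out 2 of them, the Abcc subunits of ATP-sensitive channels), 9 reached the mean of 1 FPKM needed for testing at 4.5 months, and 1 rose and 3 fell in CK-p25 (median 0.01). Kcnd1, a voltage-gated A-type channel, fell from a mean of 29.1 to 12.4 FPKM (-1.19 ± 0.31, adjusted p = 0.0201), and its auxiliary subunit Kcnip3 fell from 11.7 to 5.55 (-0.94 ± 0.25, adjusted p = 0.0227). The Kcnd1 call was lost without CK-p25 replicate 2 or any CK library (adjusted p up to 0.0681), and the Kcnip3 call without CK-p25 replicate 1 or 2 or CK replicate 1 (up to 0.076). Kcnk9, a leak channel, rose but stayed low, at 4.29, 1.91 and 0.733 FPKM in CK-p25 and listed at 0 in 2 of the CK libraries, and its call was lost without CK replicate 2 or 3 (adjusted p up to 0.0583). Against CK, the CK-p25 PU.1cKO libraries had 1 of the 9 higher and 3 lower, the higher one, Kcnk9, passing in 1 of the 8 fits without a library that could test it. At 3 months 6 were tested, and Kcnd1 (3.25 in labelled controls, 29.1 FPKM in labelled PU.1cKO, adjusted p = 0.000609), Kcnip3 and the large-conductance channel Kcnma1 were higher in the labelled PU.1cKO, while the subunit Kcnab2 was lower (2.89 against 0.833 FPKM, adjusted p = 0.0287). The Kcnip3 call was lost without any labelled PU.1cKO library or labelled control replicate 1 (adjusted p up to 0.0918), and the Kcnab2 call without any labelled PU.1cKO library (up to 0.0893). Between CK-p25 PU.1cKO and CK-p25 none of the 9 passed.

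**Figure D5:**
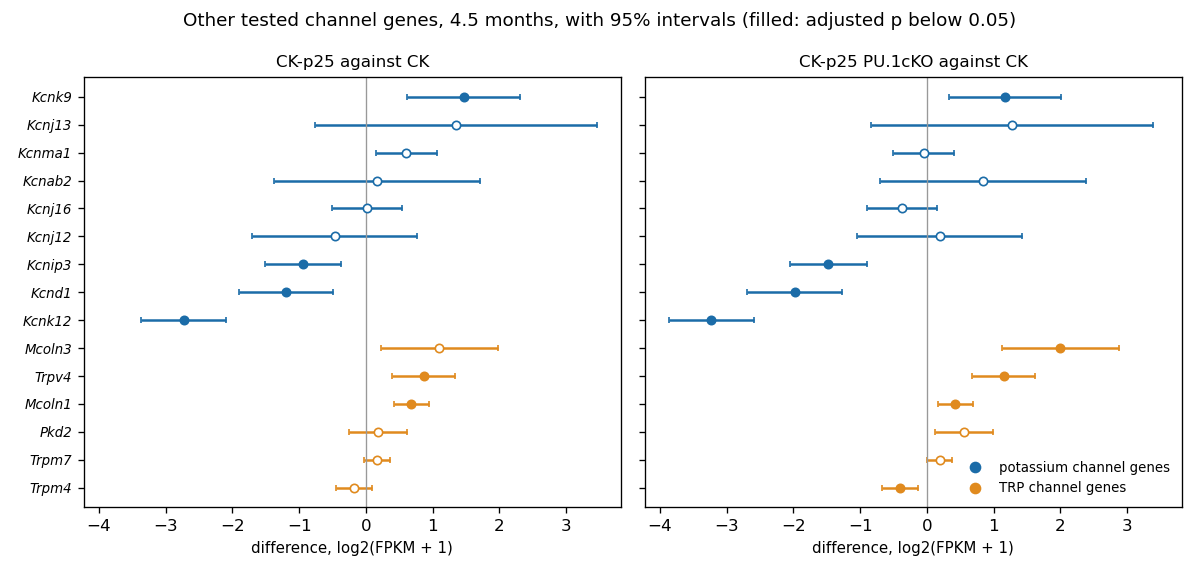
Differences of the other potassium channel (blue) and TRP channel (orange) genes tested at 4.5 months, CK-p25 against CK (left) and CK-p25 PU.1cKO against CK (right), on the log2(FPKM + 1) scale with 95% intervals; filled points passed an adjusted p of 0.05. Kcnk12 lies lowest in both panels.

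Of 26 other TRP genes, 6 were tested at 4.5 months, of which 2 rose in CK-p25: Mcoln1, a lysosomal cation channel, from 25.02 to 41.1 FPKM (0.68 ± 0.11, adjusted p = 0.00288), and Trpv4, an osmotically sensitive channel, from 3.21 to 6.56 (0.87 ± 0.21, adjusted p = 0.0139). In CK-p25 PU.1cKO these 2 and Mcoln3 rose and Trpm4 fell, the Mcoln1 and Trpm4 calls being lost without any CK or CK-p25 PU.1cKO library (adjusted p up to 0.0804 and 0.111). Mcoln3 was at 3.12, 5.26 and 1.48 FPKM there and was listed at 0 in all CK libraries. At 3 months 1 of 5, Trpm4, was called higher in the labelled PU.1cKO, and not without its replicate 1 or 2 (up to 0.068). The TRP counts, too, stand against 31.3% and 31.1% of all genes called at 4.5 months and 30.1% at 3 months.

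Of 9 genes for ATP sensing and the inflammasome, partners of potassium efflux, 2 rose and 1 fell in CK-p25, a share near the 31.3% called over all genes. The purinergic receptor P2ry12, whose activation raises Kcnk13 currents in microglia, fell from a mean of 3870 to 900 FPKM (-2.12 ± 0.14, adjusted p = 3.48e-05), while Kcnk13 itself overlapped CK. The ATP-gated channel P2rx4 rose from 51.2 to 175 FPKM (1.75 ± 0.14, adjusted p = 7.62e-05), and the cytokine gene Il1b rose (2.91 ± 0.53, adjusted p = 0.00409). With PU.1 also deleted, 2 of the 9 rose and 3 fell against CK, where 31.1% of all genes were called. Nlrp3 was among those that fell (-0.64 ± 0.15, adjusted p = 0.015, limma). Its call was lost without CK-p25 PU.1cKO replicate 2 or CK replicate 2 or 3 (adjusted p up to 0.0597). Of 6 sodium-potassium pump genes, 2 rose in CK-p25, which is also near the 31.3% of that comparison.

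Among 15 genes of calcium store release and entry, 4 rose and 3 fell in CK-p25. Over all genes 31.3% were called in that comparison, the background for each list in this paragraph. Orai1, the pore of the store-operated channel whose calcium entry opens Kcnn4, fell from 120 to 75.8 FPKM (-0.66 ± 0.11, adjusted p = 0.00295), and Stim2, a sensor of the store, rose from 4.31 to 9.38 (0.94 ± 0.16, adjusted p = 0.00342). Of 18 proton, chloride, lysosomal and mechanosensitive channel genes, 6 rose and 3 fell. Clic4 rose from 6.08 to 37.1 FPKM (2.43 ± 0.19, adjusted p = 6.84e-05), and the proton channel Hvcn1 from 55.1 to 97.2 (0.80 ± 0.12, adjusted p = 0.00181). Of the 5 tested enzymes of ADP-ribose metabolism, 2 rose in CK-p25. They were Parp1, from 21.6 to 29.1 FPKM (0.41 ± 0.08, adjusted p = 0.00508, limma), and Nudt9 (0.79 ± 0.19, adjusted p = 0.016). The Nudt9 call was lost without CK replicate 1 or 2 (adjusted p up to 0.0548). The level of ADP-ribose, which opens Trpm2, was not measured. For CK-p25 PU.1cKO minus CK, 31.1% of all genes were called. There these lists gave 4 higher and 4 lower of 15, 6 higher and 2 lower of 18, and 1 higher of 5. None of their genes passed between CK-p25 PU.1cKO and CK-p25.

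Across the 9 libraries of the 4.5-month set, the 2 genes most like each channel were found by Pearson's r of log2(FPKM + 1) among 10544 genes; the libraries share groups, and the values are a description. Those for Kcnj2 included 1110001J03Rik (r = 0.988), and those for Kcnk6 included Tmem64 (0.983). For Trpm2 they were Arhgdia (0.983) and Gatsl3 (0.972), both of which had their lowest value of the 9 libraries in CK-p25 replicate 3, Arhgdia at 170 FPKM against 172 to 183 in CK. For Kcnn4 they were Zbtb46 (0.968) and Scml4 (0.960). Scml4 was at 3.71 and 4.10 FPKM in CK-p25 PU.1cKO replicates 1 and 2 and at 0.555 in replicate 3, the same split as Kcnn4. For Kcna3 they were Dhcr7 (0.967) and Izumo4 (0.964), for Kcnk13 Pnisr (0.968) and Fam117a (0.964), and for Trpv2 Dcun1d5 (0.966) and Sec13 (0.965).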

How the data were processed

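RNA was taken from sorted hippocampal microglia with a QIAGEN kit, amplified with SMART-Seq v4 and made into libraries with Nextera XT, per the labels' protocols; these kits do not mark strand. The authors deposited FPKM values per gene in 2 separate tables, made with TopHat, Bowtie and Cufflinks 2.0.0 on mm9, per the submitters' processing notes. Library columns were matched to samples by their descriptions, and the 4 chromatin immunoprecipitation samples were not analysed here.

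Genes whose mean in a table reached 1 FPKM were tested as log2(FPKM + 1), so fold changes of low genes are understated, with limma 3.58.1 (R 4.3.3, moderated with a variance trend, two-sided) and Benjamini-Hochberg adjustment over all genes of that table, at a threshold of 0.05. All 7 channel genes passed this filter in both tables. The 6 libraries of the 3-month table and the 9 of the 4.5-month table were fitted separately, the latter with a shared spread, and no level was compared between tables. Intervals are 95%. The fit was tested on simulated data. Per list and comparison, up to 4 genes with the largest difference among those that passed without overlap could be named, with the most abundant gene of each list and the 2 genes most like each channel; some genes that this rule names are not reported here. The genes and lists were chosen with earlier results of these data known. The alternatives were a pseudocount of 0.1, no filter, a filter at 5 FPKM, median centring, quantile normalization, no variance trend, only the compared libraries, a replicate block and leaving out each library.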

Additional observations from a re-analysis of the deposited data

How the results depend on the processing

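The member counts depended on a few calls near the threshold. At 3 months 2 channels were called higher, 3 after median centring, after quantile normalization or without a variance trend, 1 with no filter and 1 to 2 when each library was left out; 1 was called lower, 2 with a pseudocount of 0.1, 2 with a filter at 5 FPKM and 1 to 2 when each library was left out. In CK-p25 against CK, 2 were called higher, and 1 with no filter, without a variance trend or with only the compared libraries, and 1 to 2 when each library was left out; 1 was called lower in every alternative run. The count of 0 for CK-p25 PU.1cKO against CK-p25 became 1 without CK-p25 PU.1cKO replicate 3 (range 0 to 1). In CK-p25 PU.1cKO against CK, 3 were called higher, 4 with only the compared libraries, 1 with no filter and 1 to 4 when each library was left out; 1 was called lower, 2 after median centring, after quantile normalization or with only the compared libraries, and 1 to 2 when each library was left out. Over single channels and all alternatives, 385 values kept their direction and their side of the threshold, 26 lost the call, 16 gained it and 20 changed sign.

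The sign changes were of differences that had not passed. At 3 months Trpv2 was 0.052 after median centring, 0.23 after quantile normalization and -0.12 to 0.074 when each library was left out (0.012 without labelled PU.1cKO replicate 3), and Trpm2 was -0.032 to 0.17 when each library was left out (-0.0056 without labelled PU.1cKO replicate 3). In CK-p25 against CK, Trpv2 was -0.010 after quantile normalization. In CK-p25 PU.1cKO against CK, Trpv2 was -0.019 after median centring, -0.094 after quantile normalization and -0.063 to 0.090 when each library was left out. In CK-p25 PU.1cKO against CK-p25, Kcnj2 was -0.0056 after median centring. When each library was left out there, Kcnk6 ran from -0.23 to 0.037, Kcnj2 from -0.39 to 0.34, Kcna3 from -0.21 to 0.26, Trpv2 from -0.22 to 0.0054 and Trpm2 from -0.34 to 0.29. Spi1 in CK-p25 against CK was -0.39 after quantile normalization and -0.10 to 0.16 when each library was left out (-0.023 without CK replicate 2).

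Among all genes, the share of calls that were higher at 3 months was 41.1%, 51.0% after median centring and 53.0% after quantile normalization, where the median difference of all genes moved from -0.03 to 0.09; in CK-p25 against CK it was 56.3% and 45.6% after quantile normalization, and in CK-p25 PU.1cKO against CK 57.2% and 45.9%. The number of genes called higher at 3 months was 1344, and 2086 after quantile normalization; leaving out each library gave 580 to 2010 higher and 960 to 2721 lower (1925 with all). In CK-p25 against CK leaving out each library gave 902 to 2162 lower (1490 with all). Lower genes numbered 1447 in CK-p25 PU.1cKO against CK, 2396 with only the compared libraries and 908 to 2398 when each library was left out. Between CK-p25 PU.1cKO and CK-p25 the counts of 0 became 12 higher and 13 lower without CK-p25 PU.1cKO replicate 3, and at most 3 higher and 4 lower under any other alternative.

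Nothing in the labels says that same-numbered libraries are pairs. Correlations of their deviations from the group means were 0.17, 0.16 and -0.05 at 3 months, against -0.26 to 0.12 for different numbers. Over the 4.5-month pairs they were -0.02 to 0.13, against -0.22 to 0.15 for different numbers. These values do not settle whether the libraries pair. With the replicate block the counts of higher and lower channels were 2 and 1 at 3 months, 2 and 1 in CK-p25 against CK, 0 and 0 between the CK-p25 groups, and 3 and 1 for CK-p25 PU.1cKO against CK, so that no count moved. Kcnj2 could not be tested at 3 months with a filter at 5 FPKM. Depth in reads is unknown, which limits what can be said of channels near 1 FPKM.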
